A study of Oryza sativa with 12 samples.

Results

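In embryonic axes of rice seed (Oryza sativa, cultivar Nipponbare), 25 of 57258 probe sets, or 0.0437%, rose strongly from the 0H to the 4H arrays after storage at 40 °C only. After storage at 25 °C they rose by at most 0.5 in log2 units or fell. They were selected on the group means of the deposited log2 signals: 4H minus 0H of at least 2.5 at 40 °C, 4H minus 0H of at most 0.5 at 25 °C, and a mean of at least 6 in the 40 °C 4H arrays. A log2 difference of 1 is a doubling of signal. Of the 25, 20 are paired with a single gene in the platform annotation, and since LOC4339200 is read by 3 of them they stand for 18 genes. Only HSFA2D and PHR2 carry a short gene name. The other genes are given by their identifiers, with no role assigned, and the remaining 5 probe sets are not listed with a gene.

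The study held 12 Affymetrix Rice Genome Arrays of total RNA, in 4 groups of 3 replicates. All seeds were equilibrated for 3 days at 25 °C and 85% relative humidity and, after the treatment, dried for 3 days at 32% relative humidity. In between, control seeds stayed at 25 °C and treated seeds were moved to 40 °C, both at 85% humidity. This lasted 14 days by the growth protocol and 15 days by the sample description. It is a regime the labels call controlled deterioration and use as a stand-in for natural seed ageing. Within a temperature, array titles end in 0H or 4H. No label explains these endings, so the change from 0H to 4H is given here without a name. The labels do not say whether replicates came from separate seed lots, so the p-values measure the spread between these arrays, which may be technical. A treatment at 45 °C named in the labels was not analysed here.

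A dry seed carries messenger RNA made during seed filling, and early germination combines breakdown of these stored transcripts with the first new transcription. Heat stress transcription factors, the family of HSFA2D, are trimeric proteins that bind heat shock elements in front of chaperone genes; the class A members activate transcription. PHR2 is a MYB-type factor of rice that switches on phosphate starvation genes and is held back by SPX proteins when phosphate is plentiful.

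The arrays were alike in overall level, with a median over all probe sets of 1.49 to 1.59. In control probe sets the 40 °C 0H arrays stood furthest apart. The Gapdh 3′ minus 5′ difference, which grows when RNA is shorter, was 3.66 ± 0.29 (SD, n = 3) at 40 °C and 2.24 ± 0.17 at 25 °C among the 0H arrays, and 2.77 ± 0.20 and 2.34 ± 0.09 among the 4H arrays (exact permutation test, two-sided, p = 0.1 in both, the smallest p that 3 against 3 arrays can give; adjusted p = 0.15 over 6 tests). The same difference for Actin was 3.33 ± 0.14 and 2.44 ± 0.06 at 0H (exact permutation p = 0.1, adjusted 0.15) and 2.95 ± 0.15 and 2.97 ± 0.16 at 4H (p = 0.9). The poly-A spike-ins averaged 8.69, 8.71 and 4.71 in the 3 replicates at 40 °C 0H, so replicates 1 and 2 stood apart. The 25 °C 0H mean was 4.25 ± 0.66 (exact permutation p = 0.2, adjusted 0.24). At 4H the spike-ins were also higher at 40 °C, 5.08 ± 0.98 against 3.23 ± 0.70 (exact permutation p = 0.1, adjusted 0.15). Every 40 °C 4H array read above every 25 °C 4H array. The part of this shift in the members' values was not tested.

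Without replicates 1 and 2 at 40 °C 0H the rule picked 34 probe sets, 23 of them among the 25, and the gaps of the 25 were 2.06 to 4.35. A fit without them leaves 1 array at 40 °C 0H, which is then assumed to vary like the other groups.

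Markers of the seed's tissues were read beside the members. Of the embryo genes on the list, 3 of 8 were found, read by 4 probe sets above the filter, with a log2 summed signal of 11.89 to 12.13 in the 25 °C 0H arrays and 11.54 to 11.72 in the 40 °C 4H arrays. VP1, a seed maturation regulator, changed from 0H to 4H by 1.85 at 40 °C and 1.65 at 25 °C, and LEA3 by −0.74 and −0.30. OSH1, a homeobox gene of the shoot meristem, changed by −1.85 and −2.69 in its 2 probe sets at 40 °C and by −0.08 and −0.58 at 25 °C. Of 11 endosperm probe sets above the filter, 10 were higher at 40 °C than at 25 °C at 0H and 6 at 4H. From 0H to 4H 8 of the 11 rose at 25 °C and 0 at 40 °C in their means. Their log2 summed signal was 10.001 to 11.16 and 11.61 to 11.75 in the 0H arrays at 25 °C and 40 °C, and 10.35 to 11.66 and 10.92 to 11.26 in the 4H arrays. The aleurone gene AMY1A, an alpha-amylase, rose from 4.08 to 9.91 at 25 °C and from 4.62 to 8.95 at 40 °C. Green tissue was represented by CAB2R, below 1.5 in every group mean, and RBCS, at most 5.51. The part of these markers in the members' values was not tested. RNA came from whole axes, so fewer cells of a type and less RNA per cell cannot be told apart in any value below.

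The rule picked a thin edge of a large response. With the 2 limits at 40 °C alone, 1347 probe sets qualified. Their 4H minus 0H difference at 25 °C ran from −0.55 to 9.66 with a median of 2.58, and 703 of them also rose by at least 2.5 at 25 °C. The 25 members are 1.86% of the 1347. The mirrored rule, a rise at 25 °C with a change of at most 0.5 at 40 °C, picked 26 of 875 probe sets, or 2.97%. These counts are a description of the selection and were not tested.

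**Figure D1:**
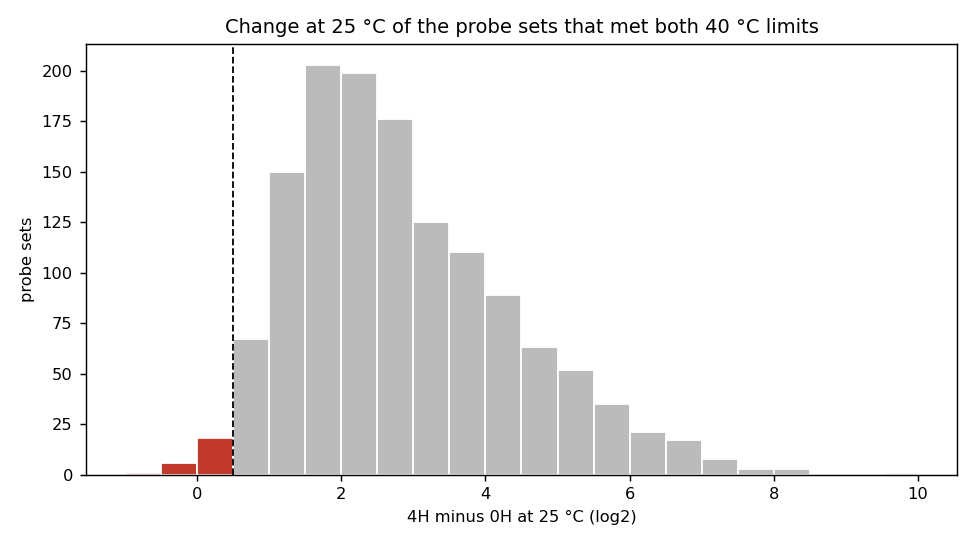
Number of probe sets (y axis) by their 4H minus 0H difference at 25 °C in log2 units (x axis, bins of 0.5), for the 1347 probe sets that met both limits at 40 °C. The dashed line is the limit of 0.5; the 25 members are the red bars to its left, at the lower end of a distribution with a median of 2.58.

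Among the members the 4H minus 0H difference at 40 °C was 2.53 to 4.49 with a median of 2.97 (median 7.82-fold), with standard errors of 0.09 to 0.37. At 25 °C it was −0.55 to 0.49 with a median of 0.22, and 7 members lay below 0. The gap between these differences was 2.11 to 4.23 with a median of 2.82. Over the 17650 probe sets above the filter, the medians of the same quantities were −0.13, −0.04 and −0.12. All 25 passed the filter, which asks for more than log2 4 in at least 3 arrays and which the limit of 6 on the 40 °C 4H mean already meets. In 24 members every 40 °C 4H array lay above all 9 other arrays, an order that the limits of the rule favour. The share of all tested probe sets with this order was not counted, and nothing is read from the 24. LOC4348876 was the exception.

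**Figure D2:**
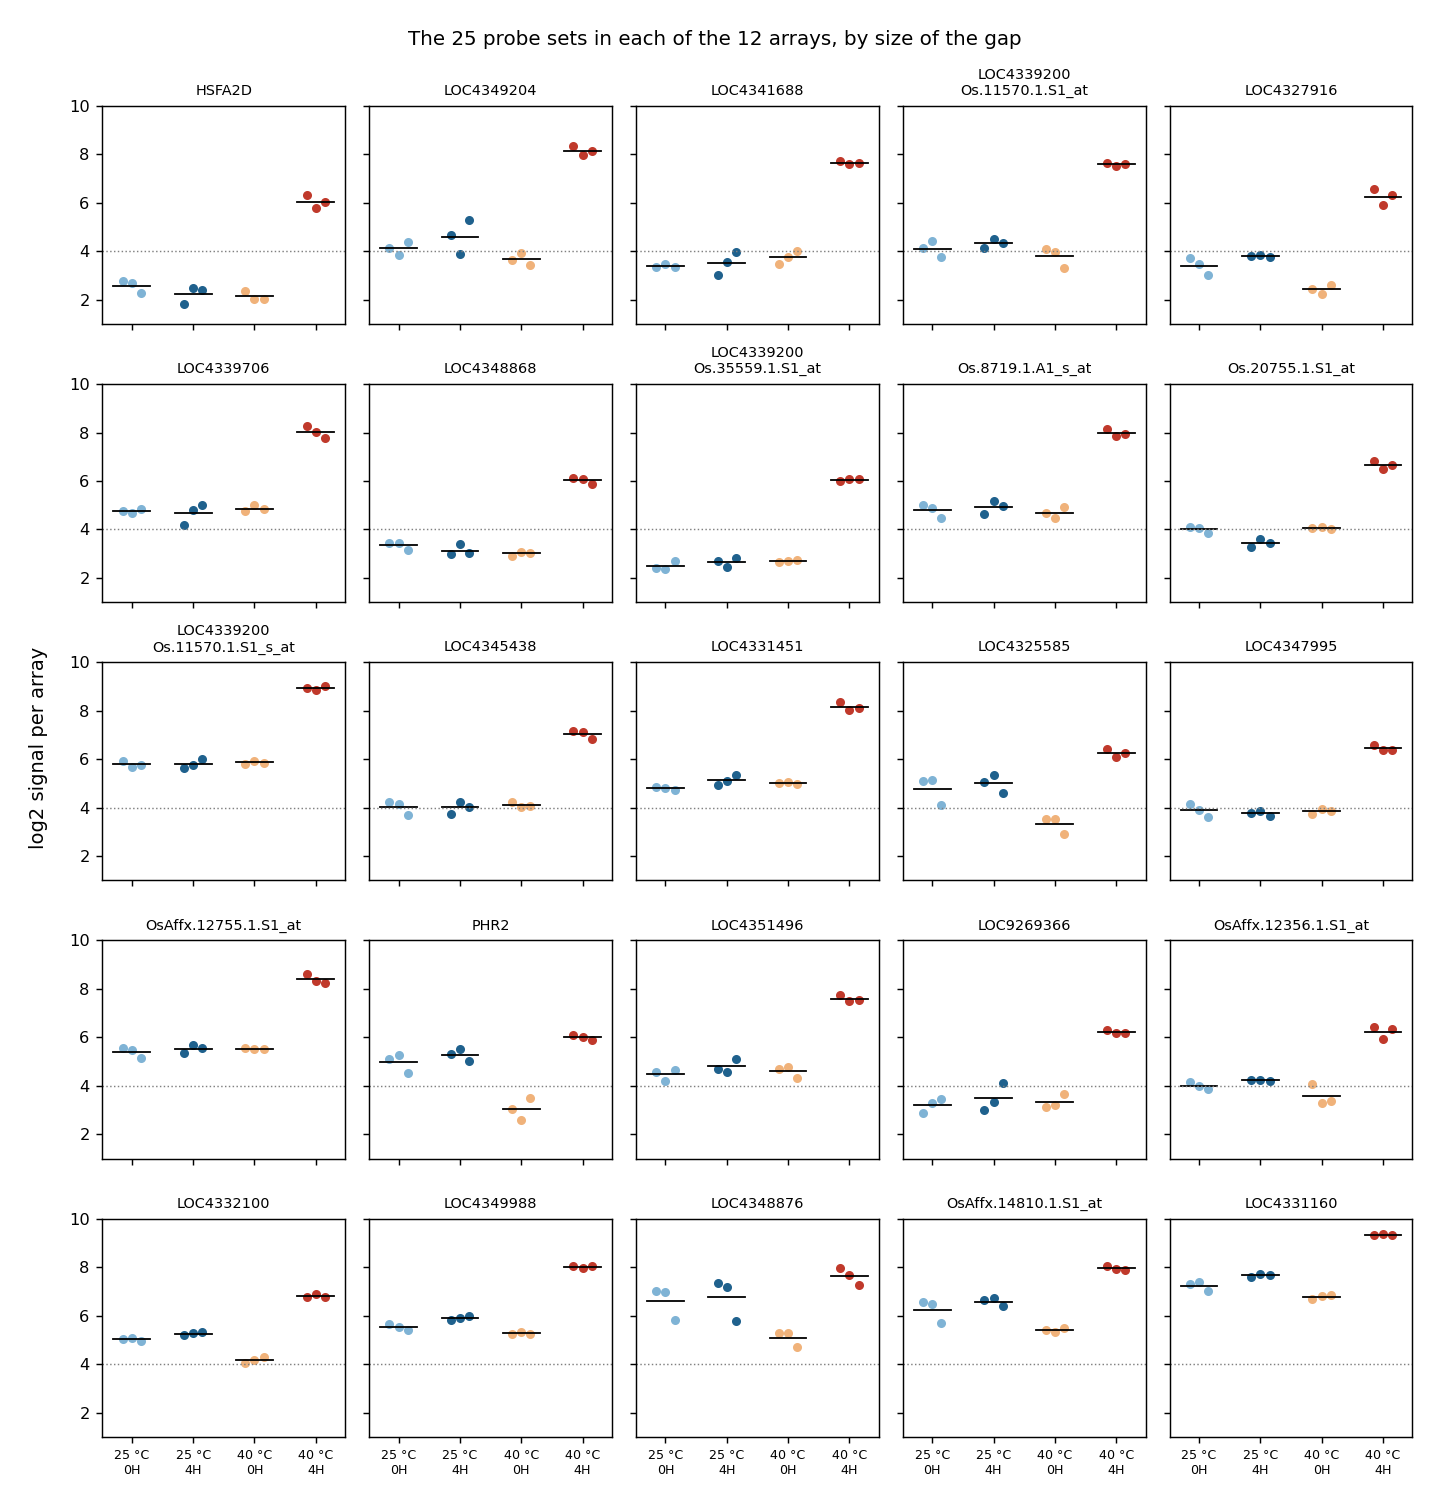
Log2 signal (y axis) of the 25 probe sets in each array, by group (x axis); points are arrays, black bars are means of 3 and the dotted line is log2 4. The 40 °C 4H arrays lie above all 9 others in 24 panels, an order the rule favours and whose share over all tested probe sets was not counted. In 7 panels, PHR2 among them, the 40 °C 0H mean was called lower in the limma fit, where 11.7% of all tested probe sets were. The rule also favours this direction, and nothing is read from either count.

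HSFA2D had the largest gap in the values as deposited. Its member probe set, Os.40021.1.S1_a_at, read 2.77, 2.67 and 2.27 in the 25 °C 0H replicates and 1.84, 2.48 and 2.40 in the 25 °C 4H replicates. In the 40 °C arrays it read 2.37, 2.03 and 2.02 at 0H and 6.31, 5.78 and 6.03 at 4H. It was low in 9 arrays and high in the 3 others, with no overlap. The difference at 40 °C was 3.90 and that at 25 °C −0.33, a gap of 4.23 ± 0.31 (SE). Log2 4 is the filter chosen here, and the background of these arrays was not measured. Counted from log2 4 the rise at 40 °C was at least 2.04, which is under the limit of 2.5. With values below log2 4 set to 4 its gap was 2.04, and LOC4349204 at 3.69, LOC4341688 at 3.65 and Os.11570.1.S1_at of LOC4339200 at 3.42 then had the largest. The identifier of this gene also carries names of an acireductone dioxygenase, an enzyme of the methionine salvage cycle, among its synonyms, so which transcript each of its probe sets reads is not settled.

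PHR2, the other member with a short name, had another shape. Its probe set Os.28062.1.S1_a_at read 5.12, 5.27 and 4.54 at 25 °C 0H and 5.29, 5.51 and 5.01 at 25 °C 4H. At 40 °C it read 3.03, 2.58 and 3.50 at 0H and 6.11, 6.00 and 5.91 at 4H. The 40 °C arrays thus began under all 25 °C arrays and ended only a little above them. The 4H difference between temperatures was 0.74, or 1.67-fold, while the 0H difference was −1.94. PHR2 met the limit of 6 by the smallest margin of any member, with a mean of 6.01.

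The largest rise at 40 °C was that of LOC4349204, from 3.63, 3.92 and 3.45 to 8.34, 7.98 and 8.15, which from log2 4 is at least 4.16, or 17.8-fold. At 25 °C it read 4.13, 3.83 and 4.39 at 0H and 4.65, 3.90 and 5.27 at 4H, a change of 0.49 with replicates that overlapped. LOC4341688 rose from 3.49, 3.75 and 4.01 to 7.71, 7.61 and 7.64 at 40 °C, from log2 4 at least 3.65, and moved by 0.11 at 25 °C. Its 4H difference between temperatures was 4.14, with a 25 °C 4H group wholly below log2 4. Its probe set has the suffix _x_at, which marks probes that may also match other transcripts.

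LOC4339200 was picked by 3 probe sets. Os.11570.1.S1_at read 4.08, 3.96 and 3.31 at 40 °C 0H and 7.65, 7.53 and 7.61 at 40 °C 4H. Os.35559.1.S1_at read 2.64, 2.71 and 2.74, then 6.01, 6.08 and 6.07. Os.11570.1.S1_s_at read 5.81, 5.95 and 5.86, then a mean of 8.94 ± 0.07 (SD, n = 3). The 3 agreed in shape, with 40 °C rises of 3.81, 3.35 and 3.07 and 25 °C changes of 0.23, 0.17 and −0.01. They share a gene and are not independent.

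Further genes near the top of the order moved at 40 °C from a level shared with the 25 °C arrays. LOC4339706 went from a mean of 4.86 ± 0.13 (SD, n = 3) to 8.02 ± 0.25, with a 25 °C change of −0.10. LOC4348868 went from 3.01 ± 0.08 to 6.02 ± 0.14, with a 25 °C change of −0.21. LOC4345438 went from 4.12 ± 0.11 to 7.04 ± 0.18, with a 25 °C change of −0.02. LOC4331451 went from 5.02 ± 0.05 to 8.17 ± 0.15, with a 25 °C change of 0.33. In these genes the 0H groups of both temperatures differed by 0.33 or less.

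The members with the highest signal at 40 °C 4H were LOC4331160, at 9.32, 9.36 and 9.33, and the probe set Os.11570.1.S1_s_at of LOC4339200. LOC4331160 had the smallest gap of all members, 2.11, since it also moved by 0.44 at 25 °C. The 40 °C 4H means of all members ran from 6.01 to 9.34, which placed them between the percentiles 85.3 and 98.3 of all probe sets. Before the rise 12 members had a 40 °C 0H mean below log2 4, and counted from log2 4 these rose by at least 2.01 to 4.16. At 25 °C 5 members were below log2 4 in all 6 arrays, and 13 were above it in all 6.

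The difference between temperatures at 0H has no limit in the rule, but the rule used both 0H groups: a low value at 40 °C 0H and a high value at 25 °C 0H each make a member more likely. Lower values at 40 °C are thus built into the choice, and the 0H differences of the members are given as a description. In the limma fit 7 of the 25 were called lower at 40 °C, where 11.7% of all tested probe sets were. None was called higher, where 5.99% of all tested probe sets were, and 18 were not called. In 9 members all 3 arrays at 40 °C lay below all 3 at 25 °C, where 21.1% of all tested probe sets did. Nothing is read from these shares. The 0H difference ran from −1.94 to 0.35 with a median of −0.24, against −0.01 over all tested probe sets.

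Among the 7, the 0H difference was −1.94 ± 0.22 (SE) for PHR2, −1.51 ± 0.37 for LOC4348876 and −1.47 ± 0.26 for LOC4325585. It was −0.85 ± 0.11 for LOC4332100, which is named here after its values were seen, −0.83 ± 0.17 for the probe set OsAffx.14810.1.S1_at and −0.45 ± 0.09 for LOC4331160. With values below log2 4 set to 4, PHR2 had −0.98 and LOC4325585 −0.79, and LOC4348876, above log2 4 in every array, kept −1.51. The seventh, LOC4327916 at −0.97 ± 0.20, was below log2 4 in all 9 arrays outside the 40 °C 4H group, and its difference was then 0.

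Without replicates 1 and 2 of the 40 °C 0H group 1 array was left there, so the 0H differences are given as sizes only. They were −1.48 for PHR2, −1.88 for LOC4325585, −0.72 for LOC4332100 and −1.89 for LOC4348876. The others were −0.79 for LOC4327916, −0.75 for OsAffx.14810.1.S1_at and −0.39 for LOC4331160. In the 40 °C 0H arrays the Gapdh 3′ minus 5′ difference stood at 3.66 against 2.24, and its part in these differences was not tested.

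LOC4325585 shows the replicate spread in this group. It read 5.12, 5.13 and 4.12 at 25 °C 0H and 3.54, 3.51 and 2.91 at 40 °C 0H, then 5.05, 5.36 and 4.62 at 25 °C 4H and 6.44, 6.10 and 6.27 at 40 °C 4H. LOC4348876 read 7.01, 6.97 and 5.83 at 25 °C 0H and 5.30, 5.28 and 4.71 at 40 °C 0H. At 4H it read 7.34, 7.17 and 5.79 at 25 °C and 7.96, 7.66 and 7.25 at 40 °C, so its lowest 40 °C 4H array was below the highest 25 °C 4H array. In both genes replicate 3 was the lowest of its 25 °C groups. Replicate 3 of the 25 °C 0H group was the lowest of the 3 in 18 of the 25 members. The share of all tested probe sets in which it was lowest was not counted, so nothing about the members is read from this. The 0H call of LOC4348876, in a direction the rule favours, was lost without replicate 1 or 2 of that group. It was also lost without replicate 3 of the 40 °C 0H group.

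The 4H difference between temperatures equals the 0H difference plus the gap. For a given gap, a member lower at 0H therefore has a smaller 4H difference. The 7 members called lower at 0H and the 18 others are given apart as a description only. The 4H difference between temperatures was 0.74 to 2.44 with a median of 1.37 in the 7, and 2.01 to 4.14 with a median of 3.04 in the 18. Both ranges follow in part from the rule, which fixes a minimum for the rise and a maximum for the change at 25 °C. They were not tested, and nothing is read from the contrast between them. In the 18 the 40 °C rise led to a level far above that of any 25 °C array. In the member probe sets of PHR2, LOC4348876 and LOC4325585 much of the 40 °C rise began below the 25 °C level, a start the rule favours. The second probe sets of these genes had 0H differences of 0.04, −0.15 and −0.29, none of them called.

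**Figure D3:**
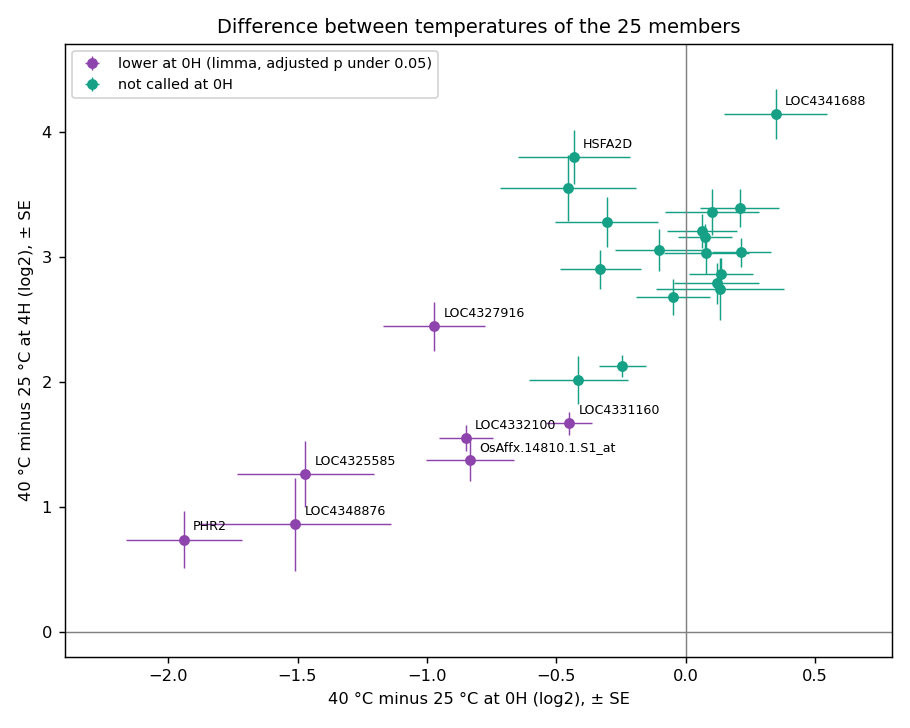
Difference between 40 °C and 25 °C at 4H (y axis, log2) against that at 0H (x axis, log2) for the 25 members, with standard errors from limma. The 7 members called lower at 0H, in purple, lie at 0.74 to 2.44 on the y axis and the 18 others at 2.01 to 4.14. The rule used all 4 groups and the y value is the x value plus the gap, so the relation is a description.

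Some genes on this array are read by more than 1 probe set, and the rule used only the member. Of the 18 member genes, 9 had 11 further probe sets that are not members, and 9 of these 11 passed the filter. All 9 had a larger 4H minus 0H difference at 40 °C than at 25 °C in limma's interaction test, against 28.1% of all tested probe sets, and none a smaller one, against 36.9%. Their gap was 0.63 to 2.58 with a median of 1.23, against −0.12 over all tested probe sets. It was smaller than the member's in 11 of 11, the members having been selected on a large gap. Probe sets of 1 gene can share probes or transcript sequence and are not independent of the member.

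For HSFA2D the second probe set, Os.2217.1.S1_a_at, read 8.45, 8.53 and 8.68 at 25 °C 0H and 8.17, 8.22 and 8.73 at 25 °C 4H. At 40 °C it read 7.94, 7.95 and 7.98 at 0H and 9.45, 9.32 and 9.40 at 4H. The direction was that of the member, with no overlap between the 40 °C 4H arrays and the others, and the gap was 1.61 ± 0.17 (SE; limma adjusted p = 1.677e-06). This probe set was also lower at 40 °C at 0H, by 0.60 ± 0.12 (adjusted p = 0.0033), the only one of the 9 with a call there.

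For PHR2 the second probe set, Os.28062.2.S2_at, read 7.21, 7.21 and 7.13 at 25 °C 0H and 7.19, 7.19 and 7.28 at 40 °C 0H. At 4H it read 7.40, 7.51 and 7.41 at 25 °C and 8.22, 8.11 and 8.00 at 40 °C. Its 0H difference was 0.04 ± 0.07 (adjusted p = 0.78), where the member's was −1.94. Its gap was 0.63 ± 0.11 (adjusted p = 0.000118), and its 4H difference of 0.67 was close in size to the member's 0.74. The 2 probe sets of PHR2 thus gave like values at 4H and unlike values at 0H, and the difference between them was not tested.

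Of the other genes called lower at 0H, LOC4325585, LOC4348876 and LOC4327916 have a second probe set. Its 0H difference was −0.29 ± 0.10 for LOC4325585 (limma adjusted p = 0.0682), −0.15 ± 0.13 for LOC4348876 (adjusted p = 0.471) and less than 0.01 in size for LOC4327916 (adjusted p = 0.998), none past the threshold. The members read −1.47, −1.51 and −0.97, and the difference between the probe sets of a gene was not tested. The gaps of the second probe sets were 1.23, 0.83 and 1.95.

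The second probe sets of LOC9269366 and LOC4349988 came closest to the rule, with 40 °C rises of 3.11 and 2.54 and gaps of 2.58 and 2.01. They missed it on the 25 °C side, at 0.54 and 0.53. A positive gap was reached by another route in 2 probe sets. Os.14369.1.A1_a_at of LOC4345438 fell by 1.40 at 25 °C and by 0.20 at 40 °C, where the member of that gene rose by 2.92. Os.57197.1.S1_at of LOC9269366 fell by 1.12 at 25 °C and by 0.12 at 40 °C, where the member rose by 2.88. For LOC4341688, the other probe sets Os.47474.1.S1_at and Os.34316.1.S1_at stayed below 2.6 in all 12 arrays and were not tested, so the rise of its _x_at member rests on that probe set.

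**Figure D4:**
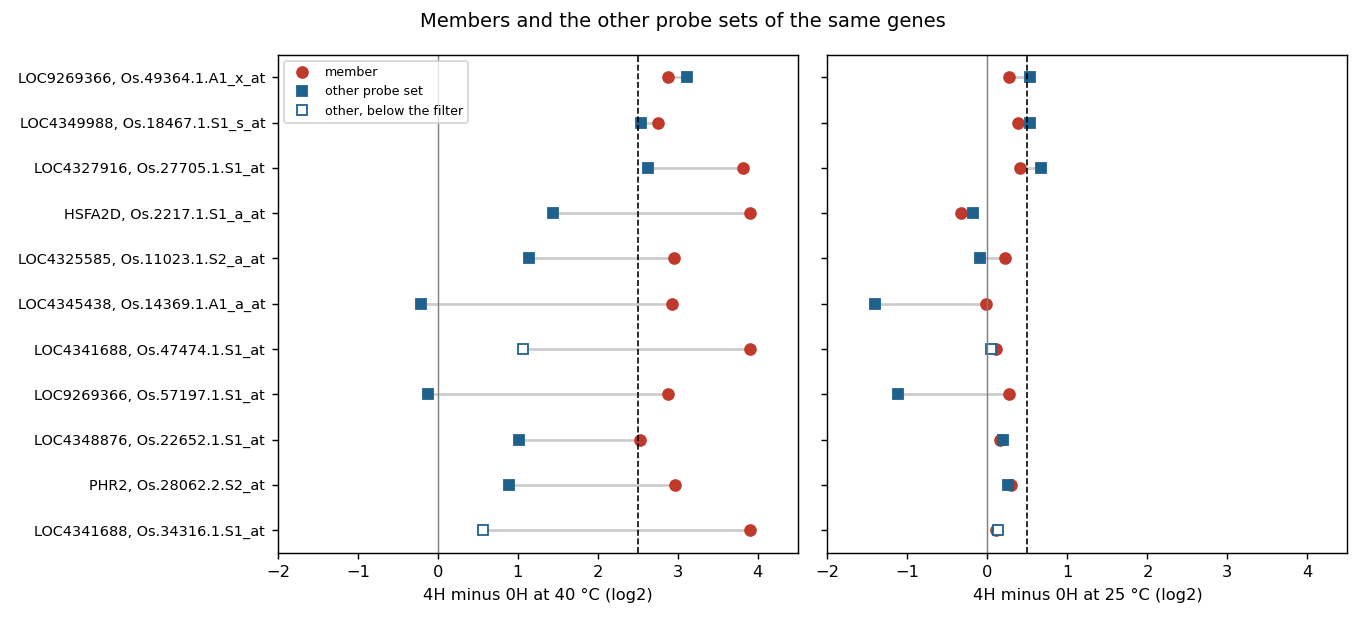
4H minus 0H in log2 units (x axis) at 40 °C (left) and 25 °C (right) for the 11 further probe sets of member genes (blue squares, open where below the filter) and the member of the same gene (red circles). Dashed lines are the limits of 2.5 and 0.5; 3 of the 11 reach 2.5 at 40 °C and 8 stay at or below 0.5 at 25 °C.

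The 8 remaining members were LOC4349988, LOC4347995, LOC4351496, LOC9269366 and the unlisted probe sets Os.8719.1.A1_s_at, Os.20755.1.S1_at, OsAffx.12755.1.S1_at and OsAffx.12356.1.S1_at. Their 40 °C rises were between 2.59 and 3.28. Os.20755.1.S1_at had the deepest fall at 25 °C of any member, from 4.10, 4.04 and 3.85 to 3.28, 3.62 and 3.46. By suffix, 4 of the 25 members end in _a_at, which marks probes common to several transcripts of 1 gene, or 16%, against 6.13% of the probe sets above the filter. The 4 are those of HSFA2D, PHR2, LOC4327916 and LOC4325585, and 3 of them are among the 7 lower at 0H.

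At the limits of the rule the members do not stand apart from their neighbours. On the 40 °C rise the last inside were LOC4348876 at 2.53 and OsAffx.14810.1.S1_at at 2.54, and the first outside LOC4347401 and LOC4324980, both at 2.48. LOC4324980 is listed with the name JMJ705, a histone demethylase of rice. On the 25 °C change the last inside were LOC4349204 at 0.49 and LOC4331160 at 0.44, and the first outside LOC4333007 at 0.50 and Os.28988.2.S1_x_at at 0.52. On the 40 °C 4H mean the last inside were PHR2 at 6.01 and LOC4348868 at 6.02, and the first outside LOC4337927, listed as a thioredoxin h, at 5.99 and LOC4348831 at 5.98.

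To see how far the choice carries to arrays it did not use, the rule was applied to 2 replicates of each group and read in the third. With replicate 1 left out, 20 probe sets were chosen, and in replicate 1 their median differences were 3.03 at 40 °C and 0.01 at 25 °C. With replicate 2 left out, 38 were chosen, with medians of 2.75 and 0.21. With replicate 3 left out, 44 were chosen, with medians of 2.79 and 0.54. The rise at 40 °C was read in the array left out at 1.24 or more in every pick, while the 3 limits together were met by 15 of 20, 16 of 38 and 12 of 44. Each such difference is between single arrays that share a replicate number.

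HSFA2D was set beside its family. Of 29 probe sets for 20 heat stress factor genes, 27 passed the filter, HSFA2D's member among them. The member was chosen for its gap and is left out of the counts that follow. They still include Os.2217.1.S1_a_at, the second probe set of HSFA2D, called larger with a gap of 1.61. Which transcript it reads is not settled. In the interaction test 16 of the other 26 had a larger 4H minus 0H difference at 40 °C, 4 a smaller one and 6 were not called, where all tested probe sets gave 28.1% and 36.9%. The median gap was 0.96, against −0.12 over all tested probe sets. The 4H minus 0H difference had a median of 0.12 at 40 °C, from −3.84 for HSFC2A to 5.55 for HSFA3, with 14 of 26 above 0. At 25 °C the median was −0.74, with 8 of 26 above 0, HSFA3 at 4.03 and HSFA4D at 2.37 among them.

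The factors named next were chosen after their values were seen. HSFA4B rose from 5.15, 5.09 and 5.13 to 9.02, 8.78 and 8.97 at 40 °C and from 5.55, 5.20 and 5.48 to 6.38, 6.34 and 6.92 at 25 °C, a gap of 2.67 ± 0.20 (SE; limma adjusted p = 1.294e-07). HSFA9, which in sunflower acts in seed maturation, rose by 3.60 at 40 °C and 1.49 at 25 °C, a gap of 2.11 ± 0.11 (adjusted p = 1.171e-08). Both rose at either temperature, unlike HSFA2D. HSFB2A, of the class B factors that lack the activation motif of class A, had 1.32 at 40 °C and −1.06 at 25 °C in Os.50642.1.S1_at (gap 2.37 ± 0.29, adjusted p = 9.057e-06).

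HSFA2C gave opposite answers in its 2 probe sets. Os.10942.1.S1_a_at read 5.44, 5.11 and 5.05 at 40 °C 0H and 7.22, 6.95 and 6.95 at 40 °C 4H, with a fall of 1.58 at 25 °C (gap 3.42 ± 0.22, limma adjusted p = 5.091e-08). Os.4766.1.S1_at rose by 2.06 at 25 °C and by 0.55 at 40 °C (gap −1.51 ± 0.28, adjusted p = 0.000333). Smaller differences at 40 °C were also called for both probe sets of HSFB4B (gaps −1.37 and −1.11) and for HSFC2A (−0.79).

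**Figure D5:**
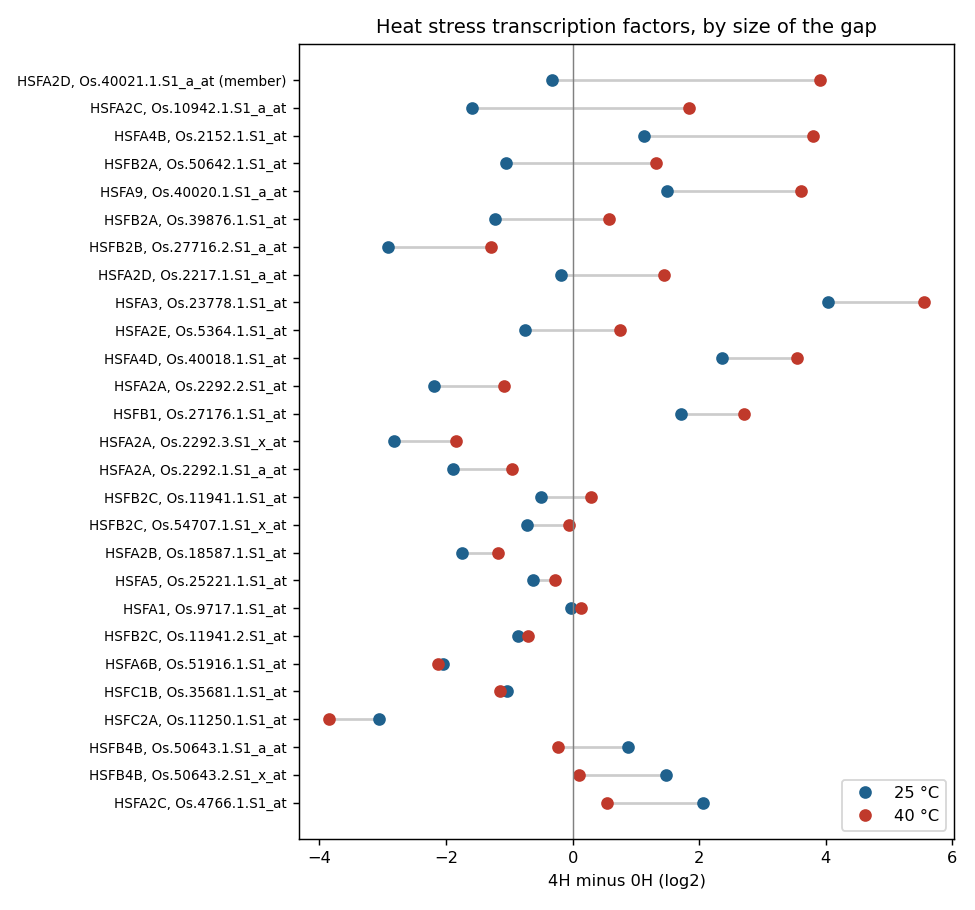
4H minus 0H in log2 units (x axis) at 25 °C (blue) and 40 °C (red) for the 27 heat stress factor probe sets above the filter, in the order of the gap. The member of HSFA2D is drawn at the top with −0.33 and 3.90, from signals below log2 4, and has a gap of 2.04 with those set to 4; 15 of the 27 lie above 0 at 40 °C.

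Small heat shock proteins, the chaperones that heat stress factors control, include no member. Of 26 probe sets for 19 genes, 23 passed the filter, and 17 had a larger 4H minus 0H difference at 40 °C, 3 a smaller one and 3 were not called. Over all tested probe sets 28.1% had a larger difference and 36.9% a smaller one. Only 2 of the 23 were above 0 at 40 °C. The median difference was −0.57 at 40 °C and −1.40 at 25 °C, so the positive gaps of this list were mostly falls that were shallower at 40 °C. Of the other chaperones, 4 of 10 probe sets above the filter had a larger difference at 40 °C, 1 a smaller one and 5 were not called. Their median gap was −0.01. The shares over all tested probe sets are the same 28.1% and 36.9%, and nothing is read from so few probe sets.

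PHR2 was set beside other phosphate genes, a list drawn up after the members were known and therefore given as values only. PHR1, the close relative of PHR2, changed by −1.22 at 40 °C and −0.62 at 25 °C. SPX1, a repressor of PHR2 and itself a phosphate starvation gene, changed by 0.82 and 1.42. SPX2 changed by −1.70 and −1.29, and SPX4, in Os.16964.1.S1_x_at, by −1.35 and −1.28. None of these 4 showed a rise limited to 40 °C, and PHR3 lay below the filter.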

How the data were processed

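The deposited values are log2 signals per probe set; GCRMA was used by the authors, per the submitters' processing notes, with no version given, and their range shows the base of the log. GCRMA corrects background by probe sequence and normalizes across arrays, so low signals are pulled together and a general change in RNA amount is removed. The table held 57381 probe sets, of which 123 controls were set aside. Probe sets above log2 4 in at least 3 arrays (17650) entered a limma 3.58.1 fit (R 4.3.3): group means over all 12 arrays, contrasts, eBayes with a variance trend, two-sided, 8 residual degrees of freedom, Benjamini-Hochberg adjusted p under 0.05 within each contrast. The fit was tested on simulated data. Control probe sets were compared by exact permutation tests. Python 3.11.15, pandas 2.3.3 and matplotlib 3.10.9 were used besides.

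Both 4H minus 0H differences, their gap and the 40 °C 4H level chose the members, and no test of them is reported for a member; the members and gene lists were chosen with earlier results of these data known. Members named in full were the 12 with the largest gap, the 4 with the highest 40 °C 4H mean, those of a listed subject and the 2 nearest each limit, each paired with a single gene; identifiers served as names. Names came from the platform annotation (22436 probe sets with 1 gene, 95 with several) and a RefSeq table of assembly ASM3414082v1, used for names and gene order only, since the build behind the probe sets is not given in the sources used here. Groups come from the sample titles. Replicate numbers were not used as pairs: correlations of the deviations of same-numbered 0H arrays at 25 °C and 40 °C were 0.03, 0.10 and 0.14, and only 25 °C 0H with 4H passed the limit in all 3 numbers (0.23, 0.13 and 0.42). The precision is limited by the number of arrays.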

Additional observations from a re-analysis of the deposited data

Results flagged for a closer look

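The change from 0H to 4H differed between temperatures, by the limma interaction test, in 9 probe sets that read member genes without being members. The gaps were 2.58 for Os.49364.1.A1_x_at and 0.998 for Os.57197.1.S1_at (LOC9269366), 2.01 for Os.18467.1.S1_s_at (LOC4349988), 1.95 for Os.27705.1.S1_at (LOC4327916), 1.61 for Os.2217.1.S1_a_at (HSFA2D), 1.23 for Os.11023.1.S2_a_at (LOC4325585), 1.20 for Os.14369.1.A1_a_at (LOC4345438), 0.83 for Os.22652.1.S1_at (LOC4348876) and 0.63 for Os.28062.2.S2_at (PHR2).

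The same test set apart 8 probe sets of other heat stress factors. The gap was 3.42 for Os.10942.1.S1_a_at and −1.51 for Os.4766.1.S1_at, both of HSFA2C, 2.67 for Os.2152.1.S1_at (HSFA4B), 2.37 for Os.50642.1.S1_at (HSFB2A) and 2.11 for Os.40020.1.S1_a_at (HSFA9). It was −1.37 for Os.50643.2.S1_x_at and −1.11 for Os.50643.1.S1_a_at, both of HSFB4B, and −0.79 for Os.11250.1.S1_at (HSFC2A).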

How the results depend on the processing

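The number of members depended on the limits. It was 25 as reported, 89 with a 40 °C limit of 2, 11 with a limit of 3, 7 with a 25 °C limit of 0, and 43 with values below log2 4 set to 4, of which 16 were among the 25. Alternatives chosen after seeing the data gave 92 with a 25 °C limit of 1 and 37 with a limit of 5.5 on the 40 °C 4H mean. Leaving out 1 array gave 23 to 36 probe sets, and quantile normalization gave 33, of which 20 were among the 25. The gap of single members stayed between 1.71 and 4.38 over 16 alternatives, and all stayed above 0. With values below log2 4 set to 4 it moved by more than the replicate SD in 7 members: HSFA2D from 4.23 to 2.04, LOC4327916 from 3.41 to 2.25, LOC4348868 from 3.23 to 2.02, Os.35559.1.S1_at of LOC4339200 from 3.18 to 2.05, PHR2 from 2.68 to 1.71, LOC4325585 from 2.73 to 2.05 and Os.20755.1.S1_at from 3.14 to 2.64. The count lower at 0H, a direction the rule favours, was 7 as reported, 5 with a filter at log2 6 and 9 with array weights. The fit without replicates 1 and 2 of the 40 °C 0H group leaves 1 array there, and its counts of calls are left out here. LOC4327916 had a 0H difference of 0 with values below log2 4 set to 4. With a filter at log2 6 the heat stress factors gave 11 larger and 2 smaller differences in place of 17 and 4 (with the member of HSFA2D counted). Smaller differences among the other chaperones numbered 1, and 2 with array weights, with the replicate block or without replicate 3 of the 25 °C 4H group (leaving out 1 array in turn gave 1 to 2). In the choice with a replicate held out, 43 of 102 picks met the limits in the array left out, and 93 of 153 with values below log2 4 set to 4. With the replicate block no other count of calls moved by more than 1.5 times; the count lower at 0H was 7 with it. The 9 other probe sets of member genes kept their call in every alternative that tested them and left at least 2 arrays in each group. Signals below log2 4 limit the size of the rise in 12 members.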

Other observations

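Beyond the limit of 0.5 on the 25 °C change, 67 further probe sets met both limits at 40 °C and changed by no more than 1 at 25 °C, and 9 of them carry short names; this band was chosen after the values were seen and was not tested. NPR3, a relative of the salicylic acid receptor NPR1, went from a mean of 0.66 ± 0.16 (SD, n = 3) to 6.84 ± 0.26 at 40 °C, with a 25 °C change of 0.55. Its 25 °C means were 0.91 at 0H and 1.46 at 4H. Signals below log2 4 limit the size of this rise. Its probe set, Os.11575.3.S1_x_at, has the suffix of probes that may also match other transcripts. OsPP2C32, a protein phosphatase of family 2C, rose by 4.07 at 40 °C and 0.53 at 25 °C. DREB2B, a transcription factor of drought and heat responses, rose by 3.93 and 0.92. ABCG37, a membrane transporter, rose by 3.60 and 0.67. The kinases CPK4, CRK6 and CIPK23 rose by 3.58, 3.12 and 2.53 at 40 °C and by 0.91, 0.64 and 0.98 at 25 °C. QM1 and NMCP1A gave 3.02 and 2.70 at 40 °C with replicate SDs above 1 in the 40 °C 4H group.

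Genes next to member genes in the RefSeq order were read as well. Of 36 neighbours 20 had probe sets, and 0 of them were members. The 23 neighbour probe sets above the filter had a median gap of 0.17, from −0.65 to 4.35, and 3 of them reached 2, where 3.36% of all tested probe sets did. They were Os.15087.2.S1_at of LOC4332099 at 4.35, and Os.13835.2.S3_a_at and Os.13835.2.S1_a_at of LOC4325586 at 3.25 and 2.02. The probe sets of LOC4325586 share a gene and are not independent. LOC4332099, beside LOC4332100, read 2.92, 2.81 and 2.80 at 40 °C 0H and 7.99, 7.77 and 7.95 at 40 °C 4H in Os.15087.2.S1_at, with a 25 °C change of 0.71. Its second probe set, Os.15087.1.S1_at, stayed below 1.6 in every array. LOC4325586, beside LOC4325585, read 5.92, 6.02 and 5.57 at 25 °C 0H and 4.40, 4.52 and 3.84 at 40 °C 0H in Os.13835.2.S3_a_at. At 4H it read 4.85, 5.17 and 5.10 at 25 °C and 6.85, 6.65 and 6.61 at 40 °C. Another probe set of LOC4325586, Os.13835.2.S2_at, rose at both temperatures, by 1.78 at 25 °C and 2.33 at 40 °C, a gap of 0.55. Both genes were named after their values were seen.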
